A study of Mus musculus with 27 samples.

Results

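Collagen chain genes encode the alpha chains that wind around each other into the collagens of the extracellular matrix, and their transcripts were followed in mouse hearts under pressure overload. The genes were taken by name alone, as every symbol in the probe annotation made of Col, a number, the letter a and a number, with the brightest probe set kept where a gene had more than 1. This gave 44 genes of the 19937 measured, on 46 probe sets. They fell into 11 fibrillar chains, 6 chains of the basement membrane network, 3 chains of short-chain networks, 6 chains of beaded filaments, 1 anchoring fibril chain, 9 FACIT chains (fibril-associated collagens with interrupted triple helices), 2 multiplexins, 4 transmembrane chains and 2 others.

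RNA from hearts of C57Bl/6J male littermates, 10 to 12 weeks old, was hybridised to 27 whole-transcript arrays. The 9 groups of 3 arrays were TAC JQ1, TAC vehicle and sham vehicle at each of days 3, 11 and 28 after surgery. Transverse aortic constriction (TAC) is a tie around the aortic arch against which the left ventricle has to pump, here with a pressure gradient of about 50 mmHg, and sham hearts were operated on without the constriction. JQ1 displaces BET bromodomain proteins, readers of acetylated chromatin, and its injections, like those of the dmso vehicle in every other animal, began 1.5 days after surgery, so day 3 follows 1.5 days of dosing. The labels hold no sham group with JQ1, so each JQ1 difference is one between constricted hearts. Each RNA came from a 10 to 20 mg piece of heart, and nothing in the labels ties an array to a separate animal, so the p-values measure the spread between these samples only. In such bulk tissue fewer cells of a type and less RNA per cell cannot be told apart.

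Fibroblasts make most of the fibrillar collagen of the heart. Types I, III and V co-assemble into the fibrils that surround muscle bundles, FACIT collagens such as XII and XIV coat these fibrils, and type VI forms a beaded microfibril next to cells. Type IV chains build the sheet of the basement membrane around myocytes and capillaries, where the multiplexins XV and XVIII lie as well. Type VIII, a short-chain collagen, forms hexagonal lattices in vessel walls and in the scar of injured tissue.

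The starts of 5 chains called after TAC are shown here, because the windows of 2 of them overlap. RefSeq promoter windows (build GRCm38.p6, 250 bases before the start and 50 after it) were matched for 35 of the 44 genes, while Col1a1, Col2a1, Col4a3, Col5a2, Col9a3, Col12a1, Col14a1, Col22a1 and Col26a1 had no window. Col4a1 and Col4a2 lie head to head on opposite strands with starts 21 bases apart, and capitals in these 2 windows mark the 78 bases they have in common. Capitals in the other windows mark the GC box GGGCGG in Col8a1, CCAAT and GGGCGG in Col1a2, and TATAAA and the SMAD motif CAGACA in Col3a1, on either strand. Other matches are not marked. CAGACA also occurs in the Col8a1 and Col1a2 windows, the TEAD motif GGAATG in that of Col3a1, and CCAAT and GGGCGG in those of Col4a1 and Col4a2.
Col4a1, chr8:11312777-11313076, minus strand: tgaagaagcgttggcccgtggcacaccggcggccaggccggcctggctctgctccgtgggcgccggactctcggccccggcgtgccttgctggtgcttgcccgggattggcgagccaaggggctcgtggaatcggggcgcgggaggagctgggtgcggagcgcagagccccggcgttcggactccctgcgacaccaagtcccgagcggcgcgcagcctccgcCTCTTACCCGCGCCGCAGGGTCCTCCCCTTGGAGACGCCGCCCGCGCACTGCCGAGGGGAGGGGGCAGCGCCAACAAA
Col4a2, chr8:11312555-11312854, plus strand: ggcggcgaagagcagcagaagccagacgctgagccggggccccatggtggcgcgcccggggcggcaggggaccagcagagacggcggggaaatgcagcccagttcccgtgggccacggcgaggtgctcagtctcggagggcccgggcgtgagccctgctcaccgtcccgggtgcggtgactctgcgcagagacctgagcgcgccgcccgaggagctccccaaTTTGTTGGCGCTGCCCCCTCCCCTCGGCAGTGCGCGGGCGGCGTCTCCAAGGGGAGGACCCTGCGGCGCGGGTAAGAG
Col8a1, chr16:57754688-57754987, minus strand: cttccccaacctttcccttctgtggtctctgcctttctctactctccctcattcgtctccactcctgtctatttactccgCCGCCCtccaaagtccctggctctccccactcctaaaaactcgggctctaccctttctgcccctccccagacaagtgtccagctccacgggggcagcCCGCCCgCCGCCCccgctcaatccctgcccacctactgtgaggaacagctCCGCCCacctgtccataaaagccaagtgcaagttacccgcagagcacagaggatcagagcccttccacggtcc
Col1a2, chr6:4505368-4505667, plus strand: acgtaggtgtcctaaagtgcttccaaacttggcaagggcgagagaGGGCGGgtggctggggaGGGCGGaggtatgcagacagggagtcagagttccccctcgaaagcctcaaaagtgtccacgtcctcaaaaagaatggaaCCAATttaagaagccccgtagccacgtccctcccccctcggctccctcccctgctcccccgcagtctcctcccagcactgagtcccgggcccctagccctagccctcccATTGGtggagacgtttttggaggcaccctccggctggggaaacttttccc
Col3a1, chr1:45311288-45311587, plus strand: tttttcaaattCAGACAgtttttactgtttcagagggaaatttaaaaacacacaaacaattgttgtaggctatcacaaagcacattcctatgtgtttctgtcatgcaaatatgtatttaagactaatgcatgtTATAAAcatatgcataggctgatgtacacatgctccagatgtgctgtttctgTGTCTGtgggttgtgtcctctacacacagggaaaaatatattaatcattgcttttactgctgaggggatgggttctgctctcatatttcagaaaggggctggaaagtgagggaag
GGGCGG occurred 4 times in the Col8a1 window and as often in that of Col8a2, which was not called after TAC. Of the 14 genes higher after TAC over the 3 days, 10 had a window (11 windows in all). GGGCGG was in 63.6% of these windows, in 59.3% of the other collagen windows and in 35.7% of all 32851 windows of this length. CAGACA was in 36.4%, 18.5% and 21% of them in the same order, CCAAT in 27.3%, 37.0% and 37.4%, TATAAA in 9.09%, 14.8% and 13.6%, the AP-1 motif TGANTCA in 9.09%, 0.0% and 7.81%, and the TEAD motif GGAATG in 18.2%, 11.1% and 14.7%. These matches were counted on both strands and describe letters only.

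Array medians lay between 6.954 and 7.043 on the log2 scale, and the 12 cardiomyocyte markers had mean levels of 12.2 to 13.7 and lay at or above the 99.2 percentile of all genes. TAC JQ1 replicate 1 of day 3 stood apart from its group in the collagens. The mean level of its multiplexins was 7.55, against 8.22 and 8.36 in the other TAC JQ1 arrays of that day, and that of its beaded filament chains was 7.58, against 8.07 and 8.13. TAC vehicle replicate 2 of day 28 had lower fibrillar and FACIT levels (7.83 and 7.36) than replicates 1 (8.14 and 7.68) and 3 (8.08 and 7.66). For several results the values without one of these arrays are given below.

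Constriction raised up to 15 of the 44 collagen genes on a single day. In TAC vehicle against sham hearts 9 of 44 were higher on day 3, 15 on day 11 and 11 on day 28 (limma, Benjamini-Hochberg adjusted p under 0.05 over all genes, with changes given below as log2 differences ± standard error), where 4.22%, 7.8% and 8.13% of all genes were called higher. No collagen gene was called lower, against 3.33%, 7.73% and 6.98% of all genes. The median change of the 44 genes was 0.03, 0.15 and −0.07 on these days, against −0.03, 0.01 and −0.05 over all genes. All 3 TAC vehicle arrays lay above all 3 sham arrays for 18 of the 44 on day 11, against 16.8% of all genes. With only the groups compared in the fit the day 3 calls of Col4a1, Col4a2 and Col5a2 (adjusted p = 0.0862, 0.113 and 0.0501) and the day 11 call of Col18a1 (0.0734) were lost.

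Collagen genes were called lower with JQ1 mainly on the later days. In TAC JQ1 against TAC vehicle hearts 5 of 44 were lower on day 3, 16 on day 11 and 13 on day 28, with 7.61%, 8.43% and 12.4% of all genes called lower. Higher with JQ1 were 0, 0 and 1 (Col4a6 on day 28), against 4.28%, 7.52% and 7.16% of all genes, so that 14 of 44 were called in either direction on day 28, against 19.6% of all genes. On day 11 all 3 JQ1 arrays lay below all 3 TAC vehicle arrays for 21 of the 44, against 19.5% of all genes. Both comparisons use the same TAC vehicle arrays, so their opposite signs are not independent of each other. The median JQ1 change of the 44 genes was −0.01, −0.24 and 0.13, against 0.02, −0.05 and 0.06 over all genes. Averaged over the 3 days, 14 genes were higher and 1 lower after TAC (13% and 12.9% of all genes), and 15 were lower and 0 higher with JQ1 (16.8% and 12.3% of all genes). Of these 15, Col5a1 (−0.16 ± 0.05, adjusted p = 0.0245) and Col4a5 (−0.13 ± 0.05, adjusted p = 0.0322) were lost with quantile normalization (adjusted p = 0.161 and 0.263) or median centring (0.0674 and 0.130), and Col5a1 on leaving out any of 5 arrays and Col4a5 any of 9. The 5 calls of day 3 all rested on TAC JQ1 replicate 1, since none was left without it, 1 was left without TAC vehicle replicate 2 of that day, and 8 were called without TAC JQ1 replicate 3. The shares of all genes called without these arrays were not computed. With only the groups compared in the fit all 5 were lost (adjusted p of 0.145 to 0.281), as were Col4a3 (0.0591) and Col5a3 (0.0677) on day 11 and Col4a6 (0.104) and Col5a2 (0.0578) on day 28.

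**Figure D1:**
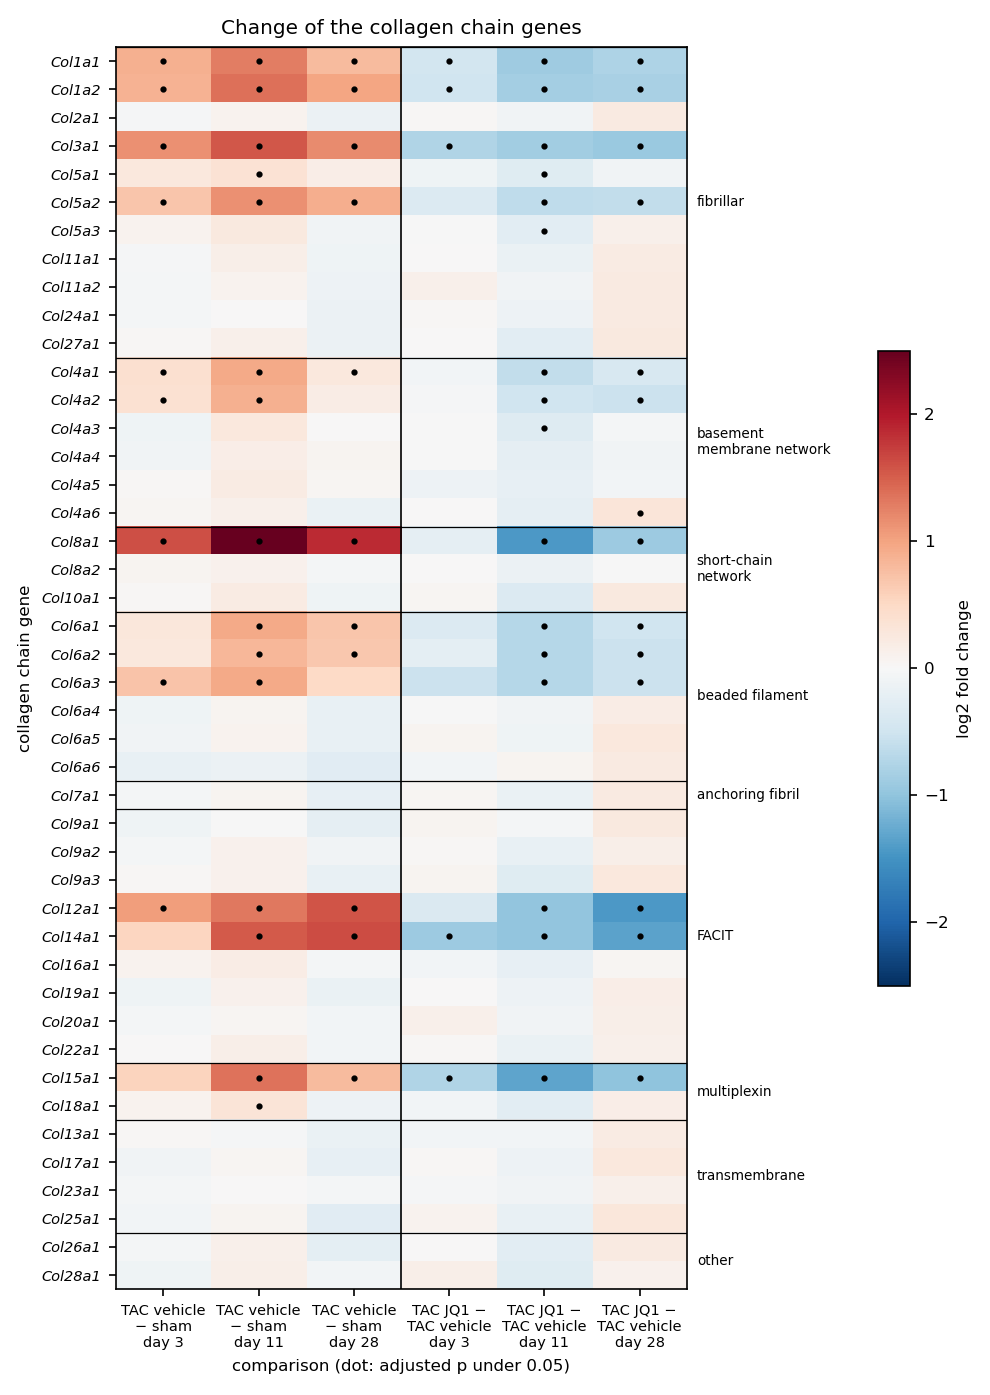
Log2 fold change of the 44 collagen chain genes (rows, ordered by class) in TAC vehicle against sham and TAC JQ1 against TAC vehicle hearts on days 3, 11 and 28 (columns), with a dot where the adjusted p was under 0.05. Dots fall on 18 of the 44 rows, and the share of all genes called in any of these comparisons was not computed. The largest change is that of Col8a1 on day 11 after TAC, 2.50.

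Of the 11 fibrillar chains 4 rose after TAC on day 3, 5 on day 11 and 4 on day 28, against 4.22%, 7.8% and 8.13% of all genes. With JQ1 3, 6 and 4 of these chains were lower, against 7.61%, 8.43% and 12.4% of all genes. The 4 that rose after TAC on every day were Col1a1 and Col1a2, which together make type I collagen, the main fibre of scar, Col3a1, the only chain of the more pliable type III collagen, and Col5a2, a chain of the type V collagen that sets fibril width. Col1a1 on day 3 read 8.85, 9.36 and 9.54 in TAC JQ1 hearts, 9.45, 10.01 and 9.67 in TAC vehicle hearts and 8.85, 8.93 and 8.69 in sham hearts. Col1a1 on day 11 measured 9.07, 9.07 and 9.09 in TAC JQ1 hearts, 10.10, 9.88 and 9.89 in TAC vehicle hearts and 8.64, 8.76 and 8.65 in sham hearts. Col1a1 on day 28 gave 8.71, 8.87 and 8.72 in TAC JQ1 hearts, 9.73, 9.18 and 9.71 in TAC vehicle hearts and 8.83, 8.75 and 8.68 in sham hearts. TAC vehicle arrays were above sham arrays on all days, and on day 28 the JQ1 arrays overlapped sham. The TAC change of Col1a1 was 0.89 ± 0.15 (adjusted p = 0.000652) on day 3, 1.27 ± 0.15 (adjusted p = 3.52e-06) on day 11 (2.42-fold) and 0.79 ± 0.15 (adjusted p = 0.000726) on day 28. With JQ1 it changed by −0.88 ± 0.15 on day 11 (adjusted p = 0.000268) and −0.77 ± 0.15 on day 28 (adjusted p = 0.000673). Without TAC vehicle replicate 2 of day 28 the Col1a1 changes of that day were 0.97 with TAC and −0.95 with JQ1.

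Col1a2, the partner of Col1a1 in the type I molecule, was called on the same days after TAC. Col1a2 on day 3 read 8.92, 9.21 and 9.35 in TAC JQ1 hearts, 9.39, 9.88 and 9.67 in TAC vehicle hearts and 8.86, 8.79 and 8.71 in sham hearts. Col1a2 on day 11 measured 8.93, 9.10 and 9.02 in TAC JQ1 hearts, 9.97, 9.78 and 9.83 in TAC vehicle hearts and 8.45, 8.57 and 8.45 in sham hearts. Col1a2 on day 28 gave 8.87, 8.85 and 8.66 in TAC JQ1 hearts, 9.83, 9.22 and 9.76 in TAC vehicle hearts and 8.66, 8.62 and 8.57 in sham hearts. Unlike its partner it kept all JQ1 arrays below all TAC vehicle arrays on day 3 as well. Its TAC change was 0.86 ± 0.13 (adjusted p = 0.000252), 1.37 ± 0.13 (adjusted p = 2.68e-07) and 0.98 ± 0.13 (adjusted p = 1.95e-05) on days 3, 11 and 28, and its JQ1 change −0.84 ± 0.13 (adjusted p = 0.000115) on day 11 and −0.81 ± 0.13 (adjusted p = 0.000116) on day 28.

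Col3a1 had the largest TAC changes of the fibrillar class. Col3a1 on day 3 read 8.40, 9.11 and 9.23 in TAC JQ1 hearts, 9.29, 10.01 and 9.70 in TAC vehicle hearts and 8.67, 8.58 and 8.35 in sham hearts. Col3a1 on day 11 measured 8.86, 9.0 and 8.88 in TAC JQ1 hearts, 9.88, 9.65 and 9.79 in TAC vehicle hearts and 8.24, 8.32 and 8.10 in sham hearts. Col3a1 on day 28 gave 8.62, 8.46 and 8.42 in TAC JQ1 hearts, 9.52, 9.04 and 9.76 in TAC vehicle hearts and 8.20, 8.26 and 8.32 in sham hearts. Of the 3 TAC vehicle arrays of day 28, replicate 2 was the lowest at 9.04. The TAC change on days 3, 11 and 28 was 1.13 ± 0.18 (adjusted p = 0.000429), 1.55 ± 0.18 (adjusted p = 3.58e-06) and 1.18 ± 0.18 (adjusted p = 8.68e-05), or 2.2-, 2.93- and 2.27-fold, and JQ1 changed it by −0.86 ± 0.18 on day 11 and −0.94 ± 0.18 on day 28. Without TAC vehicle replicate 2 of day 28 the changes of that day were 1.38 with TAC and −1.14 with JQ1, both called.

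**Figure D2:**
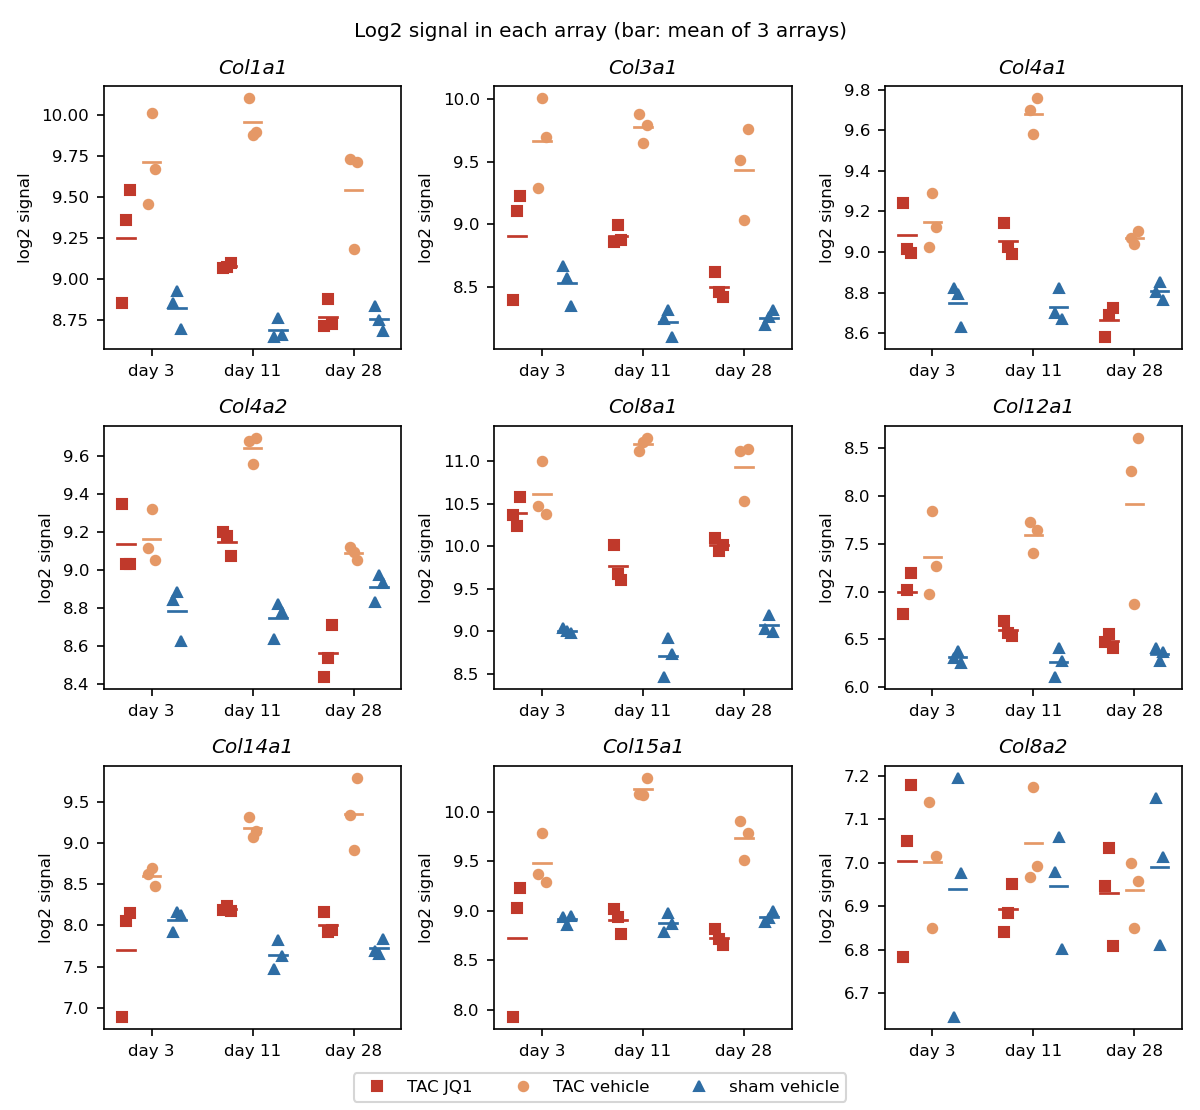
Log2 signal of 9 collagen chain genes in each array (points) with the mean of 3 arrays (bars), for TAC JQ1, TAC vehicle and sham vehicle hearts by day. The TAC vehicle points of 8 genes lie above the sham points on all 3 days, and those of Col8a2 overlap with sham on all 3 days, between 6.65 and 7.20.

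The 3 type V chains had different calls. Col5a2 on day 3 read 7.55, 7.59 and 7.72 in TAC JQ1 hearts, 7.66, 8.21 and 8.03 in TAC vehicle hearts and 7.37, 7.30 and 7.19 in sham hearts. Col5a2 on day 11 measured 7.49, 7.60 and 7.51 in TAC JQ1 hearts, 8.23, 8.04 and 8.22 in TAC vehicle hearts and 7.01, 7.05 and 7.03 in sham hearts. Col5a2 on day 28 gave 7.42, 7.37 and 7.38 in TAC JQ1 hearts, 8.03, 7.58 and 8.42 in TAC vehicle hearts and 7.15, 7.00 and 7.14 in sham hearts. Sham arrays of Col5a2 stayed between 7.00 and 7.37, and TAC vehicle arrays ran above them from 7.58 to 8.42. Col5a2 rose by 0.69 ± 0.14 (adjusted p = 0.00295) on day 3, 1.14 ± 0.14 (adjusted p = 5.16e-06) on day 11 and 0.91 ± 0.14 (adjusted p = 7.11e-05) on day 28, and changed with JQ1 by −0.63 ± 0.14 and −0.62 ± 0.14 on the later days. The day 28 changes of Col5a2 without TAC vehicle replicate 2 were 1.13 with TAC and −0.83 with JQ1. Col5a1, its usual partner, rose on day 11 (0.36 ± 0.09, adjusted p = 0.00811), where it was also lower with JQ1 (−0.29 ± 0.09, adjusted p = 0.0321). Both calls of Col5a1 were lost in some fits with 1 array left out. The TAC call did not survive leaving out sham replicate 3 (0.29, adjusted p = 0.0667). The JQ1 call was lost on leaving out any of 5 arrays of that day (adjusted p of 0.0513 to 0.141). Col5a3, the third type V chain, was not called after TAC (0.08, 0.24 and −0.08) and its JQ1 call on day 11 (−0.26 ± 0.09, adjusted p = 0.046) did not survive leaving out TAC vehicle replicate 1 or 2 (adjusted p = 0.136 and 0.204) or TAC JQ1 replicate 1 or 2 (0.157 and 0.139).

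On day 3 the JQ1 calls among fibrillar chains were Col1a1 (−0.46 ± 0.15, adjusted p = 0.046), Col1a2 (−0.49 ± 0.13, adjusted p = 0.0158) and Col3a1 (−0.75 ± 0.18, adjusted p = 0.00791). Without TAC JQ1 replicate 1 they were −0.26, −0.37 and −0.50 (adjusted p = 0.321, 0.122 and 0.0807), and without TAC vehicle replicate 2 −0.31, −0.37 and −0.58 (adjusted p = 0.284, 0.116 and 0.0682). The call of Col1a1 also did not survive leaving out TAC vehicle replicate 3 (adjusted p = 0.0812) or TAC JQ1 replicate 2 (0.0555). The remaining fibrillar chains Col2a1, Col11a1, Col11a2, Col24a1 and Col27a1, of which the first 3 are known from cartilage, were called in none of the 6 comparisons.

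Of the 6 type IV chains 2, 2 and 1 rose after TAC on days 3, 11 and 28, against 4.22%, 7.8% and 8.13% of all genes. With JQ1 0, 3 and 2 of the chains were lower, against 7.61%, 8.43% and 12.4% of all genes. Higher with JQ1 were 0, 0 and 1, against 4.28%, 7.52% and 7.16%. The chains that rose after TAC were of the ubiquitous pair Col4a1 and Col4a2, which combine into the common basement membrane protomer. Col4a1 on day 3 read 9.24, 9.02 and 9.0 in TAC JQ1 hearts, 9.02, 9.29 and 9.13 in TAC vehicle hearts and 8.82, 8.79 and 8.63 in sham hearts. Col4a1 on day 11 measured 9.14, 9.02 and 8.99 in TAC JQ1 hearts, 9.70, 9.58 and 9.76 in TAC vehicle hearts and 8.70, 8.82 and 8.67 in sham hearts. Col4a1 on day 28 gave 8.58, 8.69 and 8.73 in TAC JQ1 hearts, 9.07, 9.04 and 9.11 in TAC vehicle hearts and 8.80, 8.85 and 8.76 in sham hearts. The 3 groups of Col4a1 were apart on day 11, with JQ1 between TAC vehicle and sham, and on day 28 all JQ1 arrays lay below sham. Its TAC change was 0.40 ± 0.08 (adjusted p = 0.00293) on day 3, 0.95 ± 0.08 (adjusted p = 4.89e-08) on day 11 (1.93-fold) and 0.26 ± 0.08 (adjusted p = 0.0255) on day 28. JQ1 changed it by −0.06 ± 0.08 (adjusted p = 0.745) on day 3, −0.62 ± 0.08 (adjusted p = 1.4e-05) on day 11 and −0.41 ± 0.08 (adjusted p = 0.000793) on day 28. The small TAC call of day 28 did not survive leaving out sham replicate 1 or 3 or TAC vehicle replicate 1 or 3 (adjusted p of 0.0614 to 0.101).

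Col4a2, whose start lies beside that of Col4a1 in the windows printed above, had these values. Col4a2 on day 3 read 9.35, 9.03 and 9.03 in TAC JQ1 hearts, 9.12, 9.32 and 9.06 in TAC vehicle hearts and 8.84, 8.88 and 8.63 in sham hearts. Col4a2 on day 11 measured 9.20, 9.18 and 9.08 in TAC JQ1 hearts, 9.68, 9.56 and 9.70 in TAC vehicle hearts and 8.64, 8.82 and 8.78 in sham hearts. Col4a2 on day 28 gave 8.44, 8.54 and 8.71 in TAC JQ1 hearts, 9.12, 9.10 and 9.05 in TAC vehicle hearts and 8.83, 8.97 and 8.93 in sham hearts. Its TAC change was 0.38 ± 0.09 (adjusted p = 0.0118), 0.90 ± 0.09 (adjusted p = 6.41e-07) and 0.18 ± 0.09 (adjusted p = 0.223) on the 3 days, so that on day 28 it was not called. JQ1 changed it by −0.49 ± 0.09 on day 11 and −0.53 ± 0.09 on day 28 (adjusted p = 0.000744 and 0.000255), and −0.03 ± 0.09 on day 3 was not called. The TAC call of day 3 did not survive leaving out sham replicate 3 (0.30, adjusted p = 0.0963) or TAC vehicle replicate 2 (0.30, adjusted p = 0.135).

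For the type IV pair the size of the TAC effect differed between days. Moderated F tests over the 3 days called Col4a1 (adjusted p = 0.00645) and Col4a2 (adjusted p = 0.0142) and no other collagen gene, with 1.31% of all genes called. The next lowest adjusted p of this test were 0.0754 for Col8a1, 0.0888 for Col14a1 and 0.0941 for Col6a1. The TAC effect of Col4a1 was 0.55 ± 0.11 larger on day 11 than on day 3 (adjusted p = 0.0367) and changed by −0.68 ± 0.11 between day 11 and day 28 (adjusted p = 0.0147), and that of Col4a2 changed by −0.72 ± 0.13 between day 11 and day 28 (adjusted p = 0.0253). Both F tests held without any 1 array. The differences between 2 days did not: that of Col4a1 between days 3 and 11 was lost on leaving out any of 8 arrays (adjusted p of 0.0764 to 0.118), that between days 11 and 28 any of 3 (0.0523 to 0.0821), and that of Col4a2 any of 9 (0.0527 to 0.101). With the replicate number as a block none of the 3 was called (0.0931 and 0.0670 for Col4a1 and 0.0670 for Col4a2), and after median centring that of Col4a1 between days 3 and 11 (0.0693) and that of Col4a2 (0.0516) were lost. Without TAC vehicle replicate 2 of day 28 the F test called 5 collagen genes, and the share of all genes called then was not computed. The sham levels were not called different between days for any of the 44 genes (limma F test, 0.0652% of all genes called).

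The other type IV chains belong to tissue-restricted networks. Col4a3, Col4a4, Col4a5 and Col4a6, known from kidney and smooth muscle basement membranes, were not called after TAC on any day. Col4a3 was lower with JQ1 on day 11 (−0.33 ± 0.11, adjusted p = 0.037), a call that ended on leaving out TAC vehicle replicate 1 or 2 (adjusted p = 0.0945 and 0.194) or TAC JQ1 replicate 1 or 2 (0.174 and 0.0974). Col4a6 on day 28 gave 6.74, 6.89 and 6.55 in TAC JQ1 hearts, 6.56, 6.36 and 6.35 in TAC vehicle hearts and 6.69, 6.55 and 6.52 in sham hearts. The lowest JQ1 array of Col4a6, at 6.55, lay just below the highest TAC vehicle array, at 6.56, and its rise with JQ1 (0.30 ± 0.10, adjusted p = 0.0413) did not survive leaving out TAC vehicle replicate 2 or 3 (adjusted p = 0.128 and 0.137) or TAC JQ1 replicate 1 or 2 (0.0924 and 0.212).

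Col8a1, a short-chain collagen of vessel walls and injured tissue, had the largest TAC change of the 44 genes on days 3 and 11. Col8a1 on day 3 read 10.36, 10.23 and 10.58 in TAC JQ1 hearts, 10.48, 11.00 and 10.37 in TAC vehicle hearts and 9.04, 9.0 and 8.97 in sham hearts. Col8a1 on day 11 measured 10.02, 9.68 and 9.61 in TAC JQ1 hearts, 11.12, 11.23 and 11.27 in TAC vehicle hearts and 8.46, 8.92 and 8.73 in sham hearts. Col8a1 on day 28 gave 10.09, 9.94 and 10.01 in TAC JQ1 hearts, 11.12, 10.53 and 11.14 in TAC vehicle hearts and 9.03, 9.19 and 8.99 in sham hearts. Every TAC array, with or without JQ1, lay above every sham array of its day. The TAC change was 1.61 ± 0.16 (adjusted p = 2.63e-06) on day 3, 2.50 ± 0.16 (adjusted p = 1.54e-09) on day 11 and 1.86 ± 0.16 (adjusted p = 9.56e-08) on day 28, which is 3.06-, 5.66- and 3.63-fold. JQ1 changed it by −1.44 ± 0.16 on day 11 and −0.91 ± 0.16 on day 28 (adjusted p = 3e-06 and 0.000209), while on day 3 the groups overlapped (−0.22 ± 0.16, adjusted p = 0.456). On day 28 its TAC change was also the largest with all arrays, but without TAC vehicle replicate 2 it was 2.06, against 2.08 for Col12a1, and the JQ1 change was −1.12. In TAC JQ1 against sham hearts it remained higher by 1.39 ± 0.16, 1.06 ± 0.16 and 0.94 ± 0.16 (adjusted p = 2.39e-06, 0.000118 and 0.000115).

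The JQ1 effect on Col8a1 differed between days (F test, adjusted p = 0.0270), as did that on Col4a1 (adjusted p = 0.0371), with 1.07% of all genes called. Col4a2 was not called by this F test (adjusted p = 0.0720). Both calls ended with the replicate number as a block (adjusted p = 0.0749 for Col8a1 and 0.0860 for Col4a1) and with only the groups compared in the fit (0.110 and 0.128), and that of Col4a1 after median centring (0.0599). For Col8a1 it was −1.22 ± 0.22 on day 11 relative to day 3 (adjusted p = 0.0390), which was lost on leaving out any of 10 arrays (adjusted p of 0.0520 to 0.108), with the block (0.0992) and with only the groups compared (0.149). The F test of Col8a1 did not survive leaving out TAC vehicle replicate 3 of day 3 (adjusted p = 0.0576), TAC vehicle replicate 2 or 3 of day 11 (0.0545 and 0.0550) or TAC JQ1 replicate 2 of day 11 (0.0643). That of Col4a1 did not survive leaving out any of 12 arrays, with adjusted p of 0.0505 to 0.0772. The number of collagen genes called by this test was 0 without each of the 4 arrays named for Col8a1, 4 without TAC JQ1 replicate 1 of day 3, and 1 without any of TAC vehicle replicate 1 of days 3, 11 and 28, TAC JQ1 replicates 1 and 3 of day 11 and TAC JQ1 replicates 1 and 2 of day 28. The share of all genes that this test called in these fits was not computed.

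**Figure D3:**
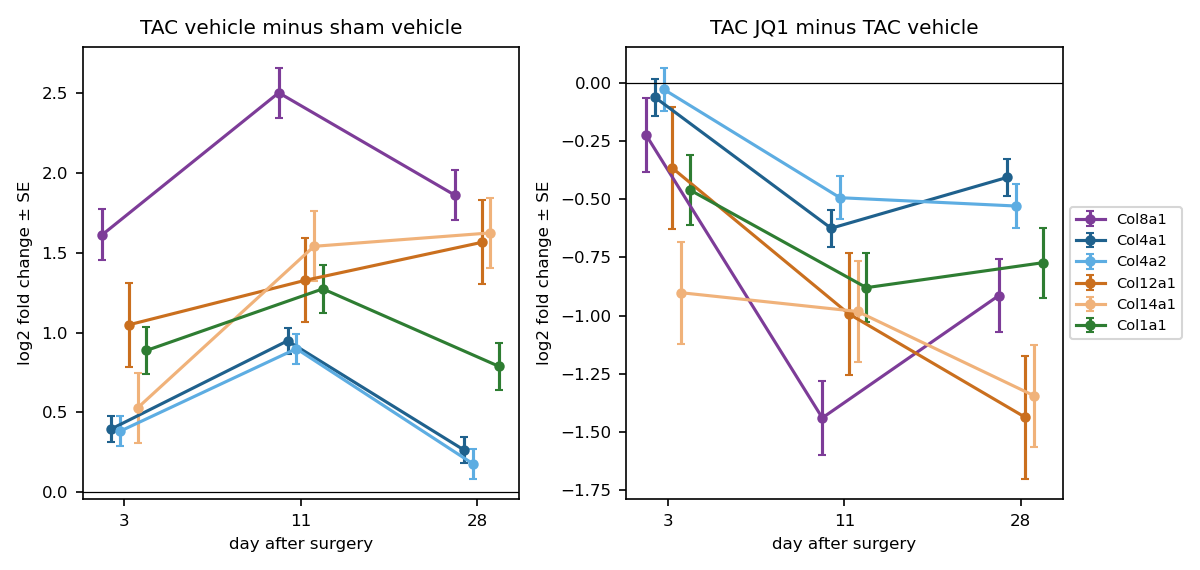
Log2 fold change ± standard error on days 3, 11 and 28 (evenly spaced, not to scale) for TAC vehicle against sham (left) and TAC JQ1 against TAC vehicle (right). The TAC change of Col4a1 and Col4a2 was largest on day 11 (0.95 and 0.90), that of Col12a1 and Col14a1 was 1.56 and 1.62 on day 28, and the JQ1 change of Col8a1 was −0.22 on day 3 and −1.44 on day 11.

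The other short-chain genes, Col8a2 and Col10a1, were called in none of the 6 comparisons. Col8a2 encodes the second type VIII chain. Col8a2 on day 11 measured 6.84, 6.88 and 6.95 in TAC JQ1 hearts, 6.97, 7.17 and 6.99 in TAC vehicle hearts and 6.98, 7.06 and 6.80 in sham hearts. Its TAC change on that day was 0.10 ± 0.12 (95% interval −0.15 to 0.35), against 2.50 for Col8a1 with an interval of 2.17 to 2.83. The difference between the 2 genes was not tested. Col10a1, the chain of hypertrophic cartilage, had changes of 0.04, 0.20 and −0.11 after TAC on days 3, 11 and 28.

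Of the 6 beaded filament chains the widely expressed trio Col6a1, Col6a2 and Col6a3, which together form type VI collagen, rose on day 11. On that day 7.8% of all genes were called higher with TAC. Col6a1 on day 3 read 8.38, 8.99 and 9.10 in TAC JQ1 hearts, 9.20, 9.21 and 9.10 in TAC vehicle hearts and 8.92, 8.97 and 8.79 in sham hearts. Col6a1 on day 11 measured 8.99, 8.99 and 8.91 in TAC JQ1 hearts, 9.75, 9.69 and 9.56 in TAC vehicle hearts and 8.75, 8.68 and 8.72 in sham hearts. Col6a1 on day 28 gave 9.06, 8.91 and 8.83 in TAC JQ1 hearts, 9.49, 9.21 and 9.59 in TAC vehicle hearts and 8.73, 8.72 and 8.76 in sham hearts. The Col6a1 change after TAC was 0.28 ± 0.12 and not called on day 3 (adjusted p = 0.217), 0.95 ± 0.12 (adjusted p = 1.08e-05) on day 11 and 0.69 ± 0.12 (adjusted p = 0.00041) on day 28. Its JQ1 arrays of days 11 and 28 were all below the TAC vehicle arrays, with changes of −0.71 ± 0.12 (adjusted p = 0.000372) and −0.50 ± 0.12 (adjusted p = 0.00618).

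Col6a2 on day 11 measured 8.85, 8.88 and 8.74 in TAC JQ1 hearts, 9.61, 9.50 and 9.52 in TAC vehicle hearts and 8.63, 8.81 and 8.68 in sham hearts. Col6a2 on day 28 gave 8.89, 8.83 and 8.68 in TAC JQ1 hearts, 9.46, 9.15 and 9.40 in TAC vehicle hearts and 8.67, 8.67 and 8.66 in sham hearts. With JQ1 the Col6a2 arrays overlapped sham on day 11 and lay above it on day 28, and its changes were 0.84 ± 0.12 (adjusted p = 2.78e-05) and 0.67 ± 0.12 (adjusted p = 0.000396) with TAC, and −0.72 ± 0.12 (adjusted p = 0.000199) and −0.53 ± 0.12 (adjusted p = 0.0024) with JQ1. Col6a3 on day 3 read 7.59, 8.59 and 8.58 in TAC JQ1 hearts, 8.60, 9.04 and 8.72 in TAC vehicle hearts and 8.11, 8.03 and 8.09 in sham hearts. Col6a3 on day 11 measured 8.20, 8.23 and 8.19 in TAC JQ1 hearts, 8.98, 8.83 and 8.97 in TAC vehicle hearts and 7.78, 8.17 and 7.99 in sham hearts. Col6a3 on day 28 gave 8.05, 8.13 and 7.91 in TAC JQ1 hearts, 8.77, 8.25 and 8.69 in TAC vehicle hearts and 8.12, 8.03 and 8.09 in sham hearts. Col6a3 was already higher on day 3 (0.72 ± 0.18, adjusted p = 0.0142), rose by 0.95 ± 0.18 (adjusted p = 0.000631) on day 11 and missed the call on day 28 (0.49 ± 0.18, adjusted p = 0.0703). With JQ1 it was −0.72 ± 0.18 (adjusted p = 0.00762) on day 11 and −0.54 ± 0.18 (adjusted p = 0.0363) on day 28. The day 3 call did not survive leaving out TAC vehicle replicate 2 (0.59, adjusted p = 0.143), and the day 28 call without TAC vehicle replicate 1 or 3 (adjusted p = 0.131 and 0.122) or any of the 3 TAC JQ1 arrays (0.0574 to 0.0884).

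The remaining type VI genes Col6a4, Col6a5 and Col6a6 were not called within a day. Col6a6 was the 1 collagen gene lower after TAC over the 3 days together (−0.21 ± 0.06, adjusted p = 0.00751). Col6a6 on day 28 gave 7.92, 8.16 and 7.93 in TAC JQ1 hearts, 7.88, 7.75 and 7.70 in TAC vehicle hearts and 8.17, 7.93 and 8.10 in sham hearts. TAC vehicle arrays of Col6a6 were below sham on that day (−0.29 ± 0.10, adjusted p = 0.0525). Its second, dimmer probe set changed by −0.51 on day 11 (adjusted p = 0.0180), where the probe set used here changed by −0.15, so that the 2 probe sets differ in that call.

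Among the 9 FACIT chains only Col12a1 and Col14a1, which bind the surface of type I fibrils, were called. With TAC 4.22%, 7.8% and 8.13% of all genes were called higher on days 3, 11 and 28. With JQ1 7.61%, 8.43% and 12.4% were called lower. The share of all genes called in any of these comparisons was not computed. Col12a1 on day 3 read 6.77, 7.02 and 7.20 in TAC JQ1 hearts, 6.98, 7.85 and 7.26 in TAC vehicle hearts and 6.31, 6.38 and 6.26 in sham hearts. Col12a1 on day 11 measured 6.69, 6.57 and 6.54 in TAC JQ1 hearts, 7.73, 7.41 and 7.65 in TAC vehicle hearts and 6.11, 6.41 and 6.28 in sham hearts. Col12a1 on day 28 gave 6.48, 6.56 and 6.41 in TAC JQ1 hearts, 8.27, 6.88 and 8.61 in TAC vehicle hearts and 6.41, 6.28 and 6.37 in sham hearts. Col12a1 in sham hearts stayed between 6.11 and 6.41, and its TAC vehicle arrays were scattered, with 6.88 in replicate 2 of day 28 beside 8.27 and 8.61. The TAC change on days 3, 11 and 28 was 1.05 ± 0.26 (adjusted p = 0.0142), 1.33 ± 0.26 (adjusted p = 0.000967) and 1.56 ± 0.26 (adjusted p = 0.000212), and JQ1 changed it by −0.99 ± 0.26 (adjusted p = 0.0116) on day 11 and −1.44 ± 0.26 (adjusted p = 0.000389) on day 28. Without TAC vehicle replicate 2 of day 28 the day 28 changes were 2.08 with TAC and −1.96 with JQ1, both called. The TAC call of day 3 did not survive leaving out sham replicate 3 (1.02, adjusted p = 0.0567) or TAC vehicle replicate 2 (0.81, adjusted p = 0.164), and the JQ1 call of day 11 without TAC vehicle replicate 1 (−0.93, adjusted p = 0.0506).

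Col14a1 was not called after TAC on day 3 but rose on both later days. Col14a1 on day 3 read 6.89, 8.06 and 8.15 in TAC JQ1 hearts, 8.63, 8.70 and 8.47 in TAC vehicle hearts and 7.92, 8.16 and 8.13 in sham hearts. Col14a1 on day 11 measured 8.18, 8.23 and 8.18 in TAC JQ1 hearts, 9.32, 9.07 and 9.15 in TAC vehicle hearts and 7.47, 7.82 and 7.63 in sham hearts. Col14a1 on day 28 gave 8.16, 7.92 and 7.94 in TAC JQ1 hearts, 9.34, 8.92 and 9.79 in TAC vehicle hearts and 7.69, 7.65 and 7.83 in sham hearts. The day 3 JQ1 array at 6.89 was the lowest of all 27. The TAC change on days 3, 11 and 28 was 0.53 ± 0.22 (adjusted p = 0.171), 1.54 ± 0.22 (adjusted p = 2.81e-05) and 1.62 ± 0.22 (adjusted p = 2.06e-05), the last of these 3.08-fold. JQ1 changed it by −0.90 ± 0.22 (adjusted p = 0.008) on day 3, −0.98 ± 0.22 (adjusted p = 0.00314) on day 11 and −1.34 ± 0.22 (adjusted p = 0.000116) on day 28, and without TAC JQ1 replicate 1 of day 3 that day's change was −0.50 (adjusted p = 0.0601). Neither FACIT gene passed the test of a TAC effect that differs between days (adjusted p = 0.746 for Col12a1 and 0.0888 for Col14a1). Col9a1, Col9a2, Col9a3, Col16a1, Col19a1, Col20a1 and Col22a1 were called in none of the 6 comparisons.

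Col15a1, a multiplexin that links basement membranes to the fibres beyond them, rose on days 11 and 28. Col15a1 on day 3 read 7.93, 9.03 and 9.23 in TAC JQ1 hearts, 9.37, 9.79 and 9.29 in TAC vehicle hearts and 8.94, 8.86 and 8.95 in sham hearts. Col15a1 on day 11 measured 9.02, 8.94 and 8.77 in TAC JQ1 hearts, 10.18, 10.17 and 10.35 in TAC vehicle hearts and 8.78, 8.98 and 8.87 in sham hearts. Col15a1 on day 28 gave 8.82, 8.72 and 8.65 in TAC JQ1 hearts, 9.91, 9.51 and 9.79 in TAC vehicle hearts and 8.89, 8.93 and 9.0 in sham hearts. On day 11 its JQ1 arrays overlapped sham, and on day 28 they lay below it. The TAC change was 0.56 ± 0.20 (adjusted p = 0.0942) on day 3, 1.36 ± 0.20 (adjusted p = 4.41e-05) on day 11 and 0.80 ± 0.20 (adjusted p = 0.00739) on day 28. JQ1 changed it by −1.32 ± 0.20 (adjusted p = 7.64e-05) and −1.01 ± 0.20 (adjusted p = 0.000859) on days 11 and 28, and by −0.75 ± 0.20 (adjusted p = 0.0148) on day 3. The day 3 call did not survive leaving out TAC JQ1 replicate 1 (−0.35, adjusted p = 0.0941) or TAC vehicle replicate 2 (−0.60, adjusted p = 0.102).

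Col18a1, the multiplexin from which endostatin is cut, was called in 1 comparison. Col18a1 on day 11 measured 7.27, 7.33 and 7.45 in TAC JQ1 hearts, 7.62, 7.72 and 7.51 in TAC vehicle hearts and 7.27, 7.48 and 7.14 in sham hearts. Its TAC change on day 11 was 0.32 ± 0.10 (adjusted p = 0.0355), a call that ended on leaving out sham replicate 1 or 3 or TAC vehicle replicate 1 or 2 (adjusted p of 0.0884 to 0.193), and its JQ1 change was not called (−0.27 ± 0.10, adjusted p = 0.0821). The anchoring fibril gene Col7a1, the transmembrane genes Col13a1, Col17a1, Col23a1 and Col25a1, and Col26a1 and Col28a1 were called in none of the 6 comparisons.

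In TAC JQ1 against sham hearts 3 collagen genes were higher on day 3, 6 on day 11 and 1 on day 28, and 1 was lower on day 28, where 6.94%, 5.01% and 7.36% of all genes were called higher and 12.6% lower on day 28. None was lower on days 3 and 11, against 10.7% and 5.51% of all genes, and the 2 calls of day 28 stand against 19.9% of all genes. On day 28 all JQ1 arrays lay below all sham arrays for 3 of the 44, against 18.7% of all genes. The day 3 genes were Col8a1, Col4a1 (0.33 ± 0.08, adjusted p = 0.00455) and Col4a2 (0.35 ± 0.09, adjusted p = 0.00917). On day 11 Col1a2 (0.53 ± 0.13, adjusted p = 0.0103), Col3a1 (0.69 ± 0.18, adjusted p = 0.0156) and Col5a2 (0.51 ± 0.14, adjusted p = 0.0189) joined these, Col4a1 and Col4a2 being at 0.32 ± 0.08 and 0.40 ± 0.09. On day 28 Col8a1 was higher and Col4a2 lower (−0.35 ± 0.09, adjusted p = 0.00822). Col1a1 was not called on any day (0.43 ± 0.15, 0.39 ± 0.15 and 0.01 ± 0.15), nor was Col15a1 (−0.19 ± 0.20, 0.03 ± 0.20 and −0.21 ± 0.20). Without TAC JQ1 replicate 1 the day 3 value of Col15a1 was 0.21 (adjusted p = 0.327).

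Several of these calls were lost in some fits with 1 array left out. Without TAC JQ1 replicate 1 of day 3, 7 collagen genes were called on that day (Col8a1, Col4a1, Col1a1, Col1a2, Col3a1, Col5a1 and Col6a3), and without TAC JQ1 replicate 2 of day 11, 3 on that day. The shares of all genes called without these arrays were not computed. On day 3 Col4a2 did not survive leaving out sham replicate 3 (adjusted p = 0.0741) or TAC JQ1 replicate 1 (0.0844). With only the groups compared in the fit Col4a1 and Col4a2 were not called on day 3 (0.111 and 0.140). On day 11 Col1a2 did not survive leaving out TAC JQ1 replicate 2 (0.0535), and Col3a1 did not survive leaving out the same array (0.0663) or sham replicate 3 (0.0624). Col5a2 was lost on leaving out sham replicate 1 or 2 or TAC JQ1 replicate 2 (0.0650, 0.0501 and 0.0791), and Col4a1 on leaving out TAC JQ1 replicate 1 (0.0697). On day 28 Col4a2 did not survive leaving out TAC JQ1 replicate 1 (0.0626).

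**Figure D4:**
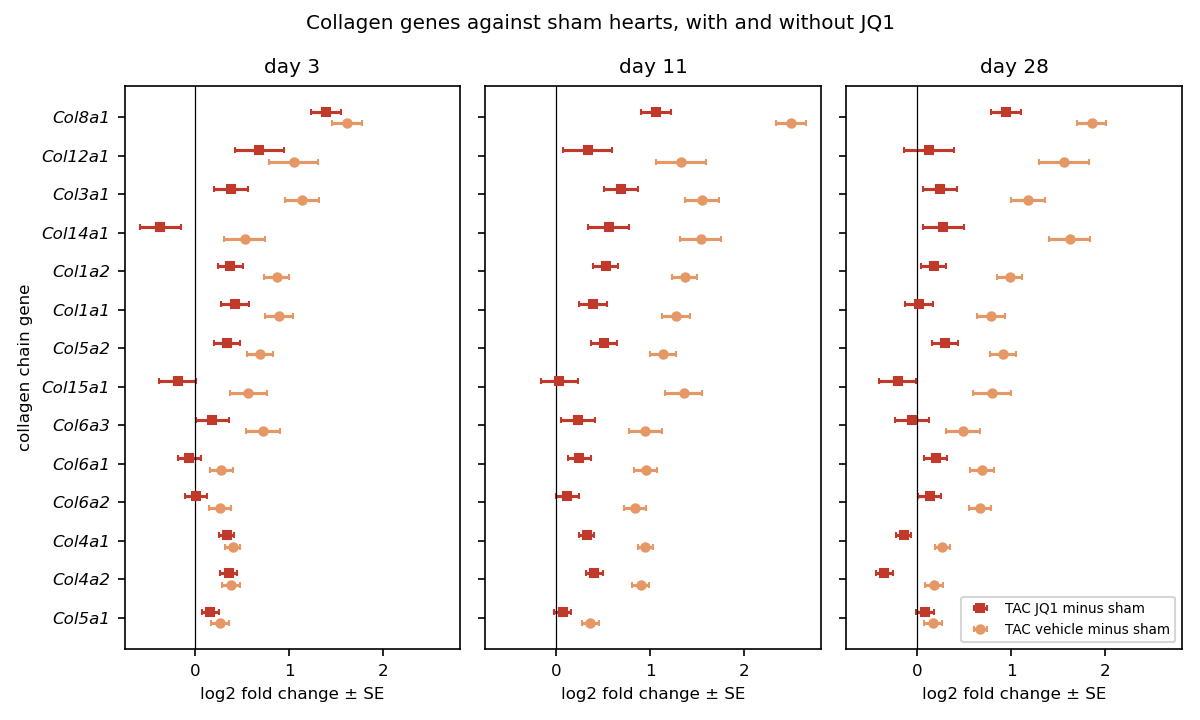
Log2 fold change ± standard error against sham hearts of the 14 collagen genes higher after TAC over the 3 days, for TAC JQ1 (squares) and TAC vehicle (circles) by day. Col8a1 with JQ1 stays right of 0 on every day (1.39, 1.06 and 0.94), while on day 28 Col1a1 lies at 0.01 and Col4a2 at −0.35.

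The 26 genes called in none of the 6 comparisons had small changes that mostly shared a sign on the later days. Their median change with TAC was 0.09 on day 11, with 23 of 26 above 0, and −0.15 on day 28, with 2 above 0. With JQ1 it was −0.15 on day 11 (1 above 0) and 0.21 on day 28 (23 above 0). The 7767 other genes in the same range of mean level (6.14 to 8.05) had medians of 0.02, −0.06, −0.08 and 0.07 in these comparisons. Across the 27 arrays the mean deviation of the 26 genes had a Pearson correlation of 0.876 with that of these 7767 genes. With the other genes dimmer than the median gene the correlation was 0.975, though some of the 26 are brighter than that gene. Both values are descriptions, since all are read from the same arrays and scaling.

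**Figure D5:**
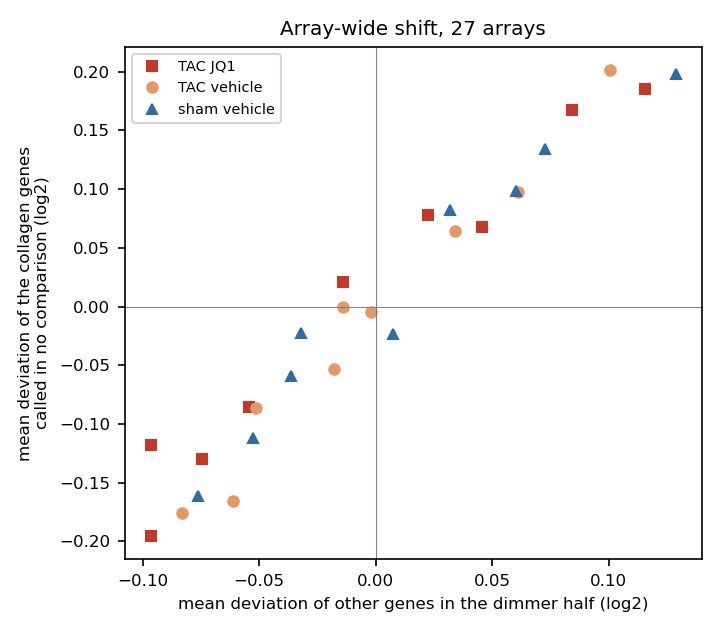
Mean deviation from the gene's own mean of the 26 collagen genes called in no within-day comparison (vertical, log2) against that of the other genes dimmer than the median gene (horizontal, log2), for each of the 27 arrays by treatment. The collagen deviations run from −0.20 to 0.20 and rise with those of the other genes.

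Enzymes and chaperones that fold, trim and crosslink collagen were mostly higher where called after TAC. Of 29 measured, 10 were higher and 0 lower after TAC on day 3, 17 and 2 on day 11, and 13 and 1 on day 28, and with JQ1 0 were higher and 5, 13 and 13 lower. Of all genes 4.22%, 7.8% and 8.13% were called higher with TAC and 7.61%, 8.43% and 12.4% lower with JQ1. The list's median TAC change was 0.27, 0.34 and 0.36, against −0.03, 0.01 and −0.05 over all genes. Lox, the crosslinking oxidase, changed by 2.43 ± 0.38, 2.33 ± 0.38 and 2.13 ± 0.38 with TAC, and by −1.41 ± 0.38 and −1.71 ± 0.38 with JQ1 on days 11 and 28 (adjusted p = 0.0134 and 0.00243). Its relative Loxl1 changed by 0.86 ± 0.10, 1.12 ± 0.10 and 1.36 ± 0.10 with TAC and by −0.67 ± 0.10 and −0.71 ± 0.10 with JQ1 on the later days.

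Pcolce, which speeds removal of the procollagen tail, rose by 0.66 ± 0.15, 0.84 ± 0.15 and 1.15 ± 0.15, and Bmp1, the protease that removes it, by 0.37 ± 0.07, 0.58 ± 0.07 and 0.47 ± 0.07. The collagen chaperone Serpinh1 rose on day 3 (0.44 ± 0.13, adjusted p = 0.0369) and day 11 (0.52 ± 0.13, adjusted p = 0.00667), and 0.33 ± 0.13 on day 28 was not called. P3h2, a hydroxylase of collagen prolines, rose by 0.92 ± 0.12 on day 11 and 0.81 ± 0.12 on day 28 and changed by −0.56 ± 0.12 and −0.75 ± 0.12 with JQ1. Of 9 collagen receptors 1, 7 and 4 were higher with TAC and 4, 8 and 4 lower with JQ1, beside the shares of all genes given for the enzymes, and 1 of 9 is too few to read. Among them were Mrc2, an uptake receptor for collagen (0.85 ± 0.10 with TAC on day 11), and Lair1, an inhibitory receptor of leukocytes (−0.91 ± 0.13 with JQ1 on day 11).

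Marker lists of other cell types are given beside the collagens, and their part in the collagen changes was not tested. Of all genes 4.22%, 7.8% and 8.13% were called higher and 3.33%, 7.73% and 6.98% lower with TAC on days 3, 11 and 28. With JQ1 4.28%, 7.52% and 7.16% were called higher and 7.61%, 8.43% and 12.4% lower. The counts of each list below stand beside these shares. Of 12 fibroblast markers 1 was higher and 2 lower with TAC on day 3, 7 and 1 on day 11 and 10 and 0 on day 28, and with JQ1 1, 0 and 0 were higher and 2, 4 and 4 lower. Their mean level on day 11 was 9.25 to 9.40 in TAC JQ1 arrays, 9.61 to 9.72 in TAC vehicle arrays and 9.02 to 9.12 in sham arrays, so the 3 groups did not overlap. On day 28 it was 9.35 to 9.67 in TAC JQ1, 9.63 to 9.99 in TAC vehicle and 9.01 to 9.06 in sham arrays. Mfap4, a microfibril gene, and Meox1, a transcription factor of activated fibroblasts, changed by 2.18 ± 0.23 and 1.55 ± 0.21 with TAC and by −1.03 ± 0.23 and −1.58 ± 0.21 with JQ1 on day 11. The median of the 12 markers on that day was only 0.34 with TAC and −0.22 with JQ1, and 1 marker was called lower with TAC. On another day, day 3, other fibroblast markers were called with the opposite sign. Gsn, an actin-severing protein, and the receptor Scara5 then changed by −0.41 ± 0.11 and −0.46 ± 0.12 with TAC (adjusted p = 0.0178 and 0.0192), and Gsn by 0.35 ± 0.11 with JQ1 (adjusted p = 0.0363).

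Of 12 macrophage markers 4, 10 and 11 were higher with TAC on days 3, 11 and 28, against 4.22%, 7.8% and 8.13% of all genes. With JQ1 7, 8 and 7 of these markers were lower, against 7.61%, 8.43% and 12.4% of all genes. Their mean level on day 11 was 8.73 to 8.81 in TAC JQ1, 9.16 to 9.27 in TAC vehicle and 8.62 to 8.67 in sham arrays. Endothelial markers were higher in 0, 2 and 1 of 12 and lower in 0, 0 and 1 with TAC, and lower in 2, 2 and 7 with JQ1. Their mean level on day 28 was 10.20 to 10.43 in TAC JQ1, 10.51 to 10.67 in TAC vehicle and 10.41 to 10.52 in sham arrays. Of 12 smooth muscle and pericyte markers 4, 4 and 0 were higher and 1, 1 and 3 lower with TAC, and 0, 1 and 0 higher and 0, 1 and 5 lower with JQ1.

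The 12 cardiomyocyte markers had a mean level on day 11 of 13.15 to 13.16 in TAC JQ1, 13.05 to 13.09 in TAC vehicle and 13.11 in all 3 sham arrays, with 0, 1 and 2 lower with TAC and 1 higher with JQ1 on day 11. Cartilage markers, listed because Col2a1, Col10a1 and Col11a1 belong to that tissue, had a mean level of 6.02 to 6.33 in the 27 arrays. Of these 10 markers 1, 1 and 2 were higher and 0, 1 and 0 lower with TAC, and 0, 0 and 1 higher and 0, 1 and 1 lower with JQ1. Of 8 Schwann cell markers 0, 1 and 1 were higher and 0, 1 and 2 lower with TAC and 1, 2 and 2 lower with JQ1. Of 10 mesothelium markers 2 were higher with JQ1 on day 28 and none was called in the other 5 comparisons. Calls in the cartilage, Schwann cell and mesothelium lists are too few to read beside the shares of all genes given above.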

How the data were processed

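The authors' deposited log2 signal values of 34760 probe sets on 27 arrays were used as given (range 1.67 to 14.2). Their background correction and normalization are not given in the sources used here, and limma is named in the submitters' processing notes, without its version. Detection calls were not used. The platform annotation named 22961 probe sets, 21640 of them with 1 gene, and 1321 with several genes and 11799 with none were left out. Of the 954 genes with several probe sets the one of highest mean was kept, which gave 19937 genes. Of the named probe sets 21553 had an Entrez identifier in the reference, which changed 0 symbols.

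A linear model with 9 group means was fitted to the 27 arrays in limma 3.58.1 (lmFit, then eBayes; R 4.3.3, data.table version 1.17.8), leaving 18 residual and 4.9 prior degrees of freedom. Groups were taken from the sample titles. Benjamini-Hochberg adjustment ran over all 19937 genes, and an adjusted p under 0.05 was a call. F tests asked whether an effect differed between days. A gene's spread is pooled over the groups (median residual SD 0.127), and the number of arrays limits the precision. The fit was tested on simulated data with 200 planted genes.

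The collagen genes, the other lists (10, on processing, receptors and markers of fibroblasts, smooth muscle, endothelium, macrophages, cardiomyocytes, cartilage, Schwann cells and mesothelium) and the rules were chosen with earlier results of these data known. Values per array were given for Col1a1, Col1a2, Col3a1, Col4a1, Col8a1, Col14a1, Col15a1 and up to 4 genes per class with the smallest p, the remaining collagen genes were named once, and of other lists up to 4 genes per comparison with the smallest p were named, besides Lox, Serpinh1 and Pcolce. Fkbp10, Adamts2, Loxl2, Gp6 and some other genes of these lists were not analysed here. Alternatives were a second quantile normalization, median centring, leaving out the dimmest genes, averaging the probe sets of a gene, trend and robust eBayes, array weights, a replicate block, fitting only the groups compared, and leaving out each array.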

Additional observations from a re-analysis of the deposited data

Results flagged for a closer look

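For Col4a1 and Col4a2, the paired chains of the common basement membrane network, the difference between TAC vehicle and sham hearts was not the same on days 3, 11 and 28. The F test of the interaction of TAC with day gave adjusted p = 0.00645 for Col4a1 and 0.0142 for Col4a2, with the largest TAC change on day 11 (0.95 and 0.90 on the log2 scale). For the difference between TAC JQ1 and TAC vehicle hearts the same test gave adjusted p = 0.0371 for Col4a1 and 0.0270 for Col8a1. The Col8a1 change with JQ1 was −0.22 on day 3, −1.44 on day 11 and −0.91 on day 28. The TAC tests of the pair held without any 1 array, while those of JQ1 did not hold without several arrays, as given with the results. The JQ1 tests also lost their calls with the replicate number as a block (0.0860 for Col4a1 and 0.0749 for Col8a1) and with only the groups compared in the fit (0.128 and 0.110).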

How the results depend on the processing

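Of 81 called collagen changes within days, 81 were kept with the dimmest genes left out, with probe sets averaged per gene, with trend and robust eBayes and with the replicate block, 80 with array weights, 76 after a second quantile normalization, 76 after median centring, 66 when only the groups compared were fitted (the 15 lost are named with the results), and 428 of 486 when 1 array was left out. None changed direction in any of these. A further alternative, chosen after seeing the data, added the mean deviation of the genes dimmer than the median of each array as a covariate and kept 78, losing the day 11 JQ1 calls of Col4a3, Col5a1 and Col5a3. The same 3 were lost after quantile normalization and after centring, together with Col1a1 with JQ1 on day 3 (adjusted p = 0.0622 and 0.0529), and Col6a3 with JQ1 on day 28 (0.0760) or Col4a1 with TAC on day 28 (0.0721).

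The count against sham with JQ1 on day 3 (3) was 5 after quantile normalization, 7 after centring, 6 without the dimmest genes, 5 with trend and robust eBayes, 12 with array weights and 6 with the covariate. The count of JQ1 effects that differ between days (2) was 1 after centring, 17 with array weights, 0 with the replicate block and 0 when only the groups compared were fitted. Array weights also gave 14 for TAC on day 3, 28 for JQ1 on day 11, 10 for JQ1 against sham on day 11, 10 for TAC effects and 4 for sham levels that differ between days. Fitting only the groups compared gave 0 for JQ1 on day 3, 10 for JQ1 against sham on day 11 and 6 for TAC effects that differ between days. The shares of all genes called in these settings were not computed, so the counts describe only how the collagen calls depend on the setting. The cause of these differences was not tested.

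With 1 array left out the counts were 6 to 9, 13 to 17 and 10 to 12 for TAC on days 3, 11 and 28, 0 to 8, 12 to 18 and 12 to 15 for JQ1, 2 to 7, 3 to 6 and 1 to 2 for JQ1 against sham, 15 to 15 and 13 to 16 for TAC and JQ1 over the days, and 2 to 5, 0 to 4 and 0 to 0 for TAC effects, JQ1 effects and sham levels that differ between days. Groups left with 2 arrays share the pooled spread. Single arrays were not left out for the other gene lists, and the shares of all genes called with 1 array left out were not computed.

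Arrays with the same replicate number deviated together about as often as arrays with different numbers. Over 27 same-number pairs within a day the correlation ran from −0.462 to 0.500, with 7 above 0.1. Over 54 pairs with different numbers it ran from −0.470 to 0.430, with 15 above 0.1. In 10 of 27 comparisons an array correlated best with its own number. The number was not treated as a pairing, though these correlations cannot exclude a shared batch. With the replicate number as a block the F tests of JQ1 gave adjusted p = 0.0860 for Col4a1 and 0.0749 for Col8a1. With only the groups compared they gave 0.128 and 0.110, and after centring Col4a1 gave 0.0599, while the F tests of TAC for Col4a1 and Col4a2 kept their calls in all settings run. The 4 differences between 2 days were lost with the block as well (adjusted p = 0.0931 and 0.0670 for Col4a1, 0.0670 for Col4a2 and 0.0992 for Col8a1).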
